A study of Procambarus clarkii with 12 samples.

Results

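The hepatopancreas of red swamp crayfish (Procambarus clarkii) held with 10 mg/L cadmium was compared with that of crayfish held with 2 mg/L. The comparison rests on 6 of the 12 RNA-seq libraries of the series, taken by their titles, with 3 libraries at 10 mg/L and 3 at 2 mg/L. Exposure lasted 72 h in both groups, and all animals were male. A further 3 libraries of unexposed controls (0 mg/L, 72 h) show which dose left the unexposed level. These controls and 3 libraries at 5 mg/L also entered the filter on low counts, the scaling and the estimate of the spread. Neither group is a side of the comparison. The labels give neither the cadmium salt, the age nor the strain, and leave unstated whether each library stands for a single animal or for pooled animals. P-values therefore measure the spread between these libraries, which may be technical.

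The hepatopancreas is the digestive gland of crustaceans. It secretes digestive enzymes, absorbs and stores nutrients, and is the main site where metals are bound and detoxified. Cadmium has no known use in these animals. It binds thiol groups, displaces zinc and other metals from proteins, and is known for inducing metallothioneins and for causing oxidative stress.

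The features are gene clusters, groups of assembled transcripts that share reads, of which the files list 176325. A filter on low counts left 57151 for testing. No cluster is paired with a gene name in the files, and 0 identifiers matched the RefSeq gene table, so neither pathways nor markers of the hepatopancreas or of other cell types were examined. Clusters are described here by their level, their behaviour across libraries and the length that their counts and FPKM imply, and 4 are named by identifier. That implied length is the one that entered FPKM and need not equal the length of the sequence. Among clusters of at least 100 CPM it fell as low as 8.81 and 5.81 bases. Levels are CPM, counts scaled to a common library size after TMM adjustment, which are not divided by length, so they are compared between libraries and not between clusters. In whole tissue, fewer cells of a type and less RNA per cell cannot be told apart.

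The 2 doses had libraries of like depth. Estimated counts summed to 16083833, 16339501 and 16880989 in the 10 mg/L libraries and to 15835744, 16905766 and 17480371 in those at 2 mg/L, and the ranges overlapped (exact permutation test, two-sided, p = 0.6, where 3 libraries against 3 allow no p below 0.1). The 3 controls were deeper, at 19490723 to 21160462. Clusters with at least 1 count numbered 97570, 102145 and 84435 in the 10 mg/L libraries and 98213, 94905 and 88136 in the 2 mg/L libraries (exact permutation p = 0.9). The 1000 clusters with the most counts held 66.1%, 66.6% and 77.1% of counts at 10 mg/L, against 69.2%, 73.9% and 74.5% at 2 mg/L (exact permutation p = 0.6). In both measures 10 mg/L replicate 3 lay at the far end of its group, with the fewest clusters and the largest share in the top 1000.

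That library stood apart from the other two at its dose. Over the tested clusters, 10 mg/L replicates 1 and 2 had a Spearman correlation of 0.625 with each other, close to the 0.625 to 0.635 among the 2 mg/L libraries. Replicate 3 reached 0.523 and 0.551 with them, and 0.545, 0.553 and 0.560 with the 3 libraries at 2 mg/L. Among clusters averaging at least 10 CPM, the median absolute log2 difference between 2 libraries was 0.54 for replicates 1 and 2, and 0.94 and 0.83 for replicate 3 against each of them. Replicate 3 differed from the 2 mg/L libraries by 0.72, 0.62 and 0.70, less than from either library of its own dose. The 3 pairs at 2 mg/L differed by 0.46 to 0.49. Results that rest on replicate 3 are given with and without it.

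The libraries at 2 mg/L lay nearer the controls than 2 of the 3 at 10 mg/L. The mean Spearman correlation of a library with the 3 controls was 0.512, 0.516 and 0.576 at 10 mg/L, against 0.582, 0.589 and 0.569 at 2 mg/L. Replicate 3 at 10 mg/L was the one library of that dose within the range of the 2 mg/L libraries. The group means were 0.535 ± 0.036 at 10 mg/L and 0.580 ± 0.010 at 2 mg/L (SD, n = 3 each, exact permutation p = 0.2). The controls correlated with each other at 0.611 ± 0.005 (SD, n = 3). Restricted to clusters of at least 10 CPM, the same measure was 0.484, 0.529 and 0.692 at 10 mg/L, against 0.686, 0.701 and 0.638 at 2 mg/L (exact permutation p = 0.3). The difference did not pass the test in either form.

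Between the doses 7 clusters passed the edgeR quasi-likelihood test at an adjusted p under 0.05, which is 0.0122% of those tested. At 10 mg/L 4 were higher (0.007%) and 3 lower (0.00525%). The fit took the spread from all 12 libraries, which favours clusters that are steady within every group, controls included. The 7 clusters divided by direction. All 4 that were higher at 10 mg/L did not differ detectably from the controls at that dose and were nearly or fully missing at 2 mg/L. All 3 that were lower had no counts in any 10 mg/L library and were present at 2 mg/L and in the controls. Over all tested clusters, 4 were called at 10 mg/L against the controls (0.007%), of which 3 were lower (0.00525%), and 5 at 2 mg/L against the controls (0.00875%), of which 4 were lower (0.007%).

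Cluster-27942.49753 was the most strongly counted of the 4 higher clusters, with an implied length of 1295 bases. It had 90.4, 46.2 and 43.0 CPM at 10 mg/L, against 1.07, 1.35 and 1.48 CPM at 2 mg/L. Every 10 mg/L library was far above every 2 mg/L library. On the log2 scale the fold change was 5.52 ± 0.45 (SE), with an edgeR adjusted p of 0.00998. The controls had 33.7, 41.0 and 60.0 CPM. Against them the log2 fold change was 0.41 with standard error 0.37 at 10 mg/L (edgeR adjusted p = 0.763) and -5.10 with standard error 0.44 at 2 mg/L (edgeR adjusted p = 0.0137). The 2 mg/L dose was thus the one outside the unexposed level.

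Cluster-27942.44902, with an implied length of 4499 bases, had 11.8, 12.4 and 18.1 CPM at 10 mg/L and 0 counts in all 3 libraries at 2 mg/L. Against a floor of 3 counts over the 2 mg/L group it was at least 237-fold higher at 10 mg/L (edgeR adjusted p = 0.00998). The floor covers counting error only. The controls had 23.2, 17.1 and 10.3 CPM, a range that overlapped the 10 mg/L libraries. At 2 mg/L the cluster was at least 282-fold lower than in the controls (edgeR adjusted p = 0.0137), while at 10 mg/L it did not differ detectably from them (edgeR adjusted p = 0.934).

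The 2 remaining higher clusters behaved in the same way and are given without identifier. One, of 1813 implied bases, had 19.9, 6.53 and 12.4 CPM at 10 mg/L and 0 counts in every 2 mg/L library, with 16.6, 9.32 and 11.8 CPM in the controls. The other, of 2851 implied bases, had 3.54, 4.05 and 3.70 CPM at 10 mg/L and again 0 counts at 2 mg/L, with 2.48, 4.41 and 2.59 CPM in the controls. They were at least 217-fold and 63.1-fold higher at 10 than at 2 mg/L, each with an edgeR adjusted p of 0.00998. Against the controls each was called at 2 mg/L (edgeR adjusted p = 0.0150) and neither at 10 mg/L (edgeR adjusted p = 0.998 and 0.928).

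Among the 3 lower clusters, Cluster-27942.86978 had the most counts and the longest implied length, 10099 bases. It had 0 counts in all 3 libraries at 10 mg/L, against 74.1, 78.4 and 18.8 CPM at 2 mg/L. Against the floor this was a drop of at least 939-fold (edgeR adjusted p = 0.0137). The controls had 31.1, 34.7 and 18.7 CPM, which put the 10 mg/L libraries at least 463-fold below them (edgeR adjusted p = 0.0376). At 2 mg/L its log2 fold change against the controls was 1.02 ± 0.59 (SE, edgeR adjusted p = 0.820).

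Cluster-27942.63033, of 6936 implied bases, had 0 counts at 10 mg/L and 38.3, 25.4 and 31.4 CPM at 2 mg/L. The controls had 9.60, 18 and 7.32 CPM, below every 2 mg/L library. Between the doses it was lower at 10 mg/L by at least 521-fold (edgeR adjusted p = 0.00998). At 10 mg/L it lay at least 191-fold below the controls (edgeR adjusted p = 0.0265), and at 2 mg/L its log2 fold change was 1.45 with standard error 0.50 (edgeR adjusted p = 0.762). The remaining lower cluster, of 3048 implied bases, had 0 counts at 10 mg/L, 14.9, 11.4 and 18.4 CPM at 2 mg/L, and 5.61, 6.55 and 11.7 CPM in the controls. It lay at least 246-fold below the 2 mg/L level (edgeR adjusted p = 0.00998) and at least 131-fold below the controls (edgeR adjusted p = 0.0265). The 10 mg/L dose was outside the unexposed level in all 3.

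**Figure D1:**
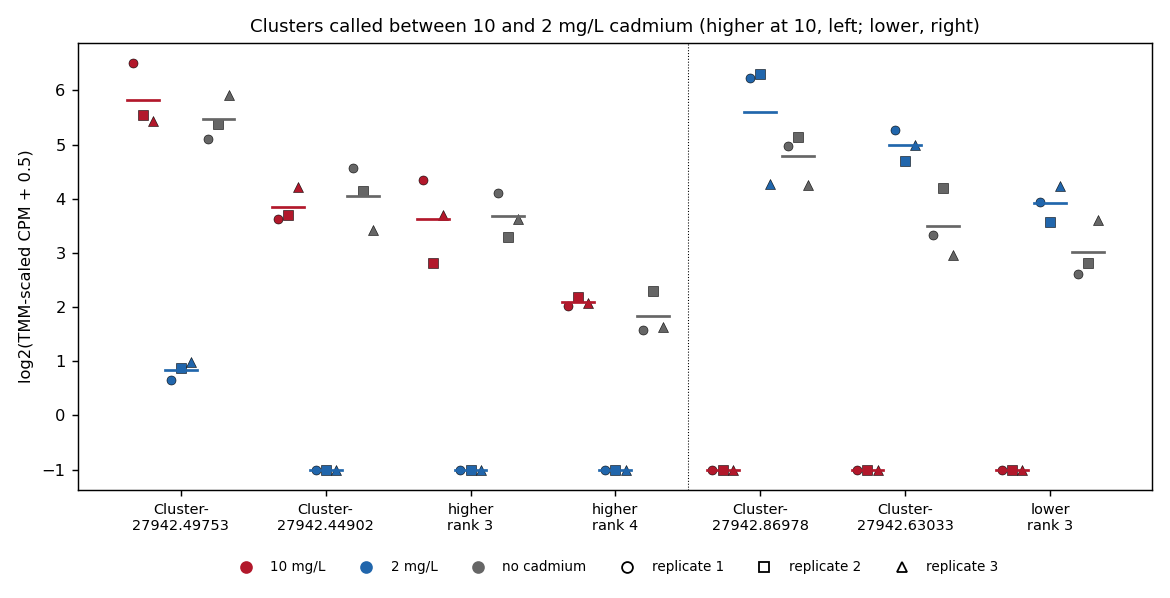
Levels of the 7 clusters called between the doses, as log2(TMM-scaled CPM + 0.5), for each library at 10 mg/L, 2 mg/L and without cadmium; symbols mark the replicates, short lines the mean of 3, and -1 stands for 0 counts. The 4 clusters on the left lie near the control levels at 10 mg/L and missing or low at 2 mg/L, and the 3 on the right have no counts at 10 mg/L.

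The 7 clusters were called again with 10 mg/L replicate 3 left out, and with each of the other 2 libraries of that dose or each 2 mg/L library left out in turn. Without control replicate 1, control replicate 2 or 5 mg/L replicate 2, Cluster-27942.86978 missed the threshold (edgeR adjusted p = 0.0626, 0.0559 and 0.0583), as did the least abundant higher cluster without control replicate 1 (edgeR adjusted p = 0.0511). The total number of calls moved more. It was 159 without 10 mg/L replicate 3, and 12 (0.0181%) and 14 (0.0211%) without replicates 1 and 2 of that dose. It was 12 (0.0175%), 16 (0.0232%) and 9 (0.013%) without 2 mg/L replicates 1, 2 and 3. Without control replicates 1, 2 and 3 it was 5 of 65312 tested, 6 of 65887 and 10 of 65968. The number of called clusters that were also called against the controls moved too. The 3 of 7 at 10 mg/L became 0 when any library other than 10 mg/L replicate 3 was left out, and became 112 of the 159 without that one. The 4 of 7 at 2 mg/L became 0 in the fits lacking control replicate 1, control replicate 2 or 2 mg/L replicate 3. They became 9 of 12 and 13 of 16 without 2 mg/L replicates 1 and 2, and 2 of 14 and 2 of 159 without 10 mg/L replicates 2 and 3. Fits with a library left out tested more clusters, 65147 to 69389.

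The 159 clusters called without 10 mg/L replicate 3 comprised 99 higher (0.143%) and 60 lower (0.0867%) at 10 mg/L, together 0.23% of the 69180 tested in that fit. The library left out took no part in that test, and its own values therefore show how far the difference extended to it. It lay nearer the 2 mg/L libraries than the other two 10 mg/L libraries in 132 of the 159 clusters, and nearer its own dose in 27, the 7 above included. Of the 99 higher clusters 14 were among the 27, and of the 60 lower 13. For the higher clusters the median log2 difference from 2 mg/L was 3.60 in replicates 1 and 2 and 0.00 in replicate 3. For the lower clusters the medians were -2.80 and -0.51. The controls lay nearer the 2 mg/L level in 137 of the 159 clusters, 80 of the higher and 57 of the lower. Most clusters of this set thus separated 2 libraries at 10 mg/L from replicate 3 of that dose as well as from the 2 mg/L libraries and the controls.

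Leaving out replicate 1 or 2 of 10 mg/L gave smaller sets. Without replicate 1 the left-out library lay nearer its own dose in 8 of 12 clusters, and without replicate 2 in 7 of 14. Without 2 mg/L replicates 1, 2 and 3, the left-out library was nearer its own dose in 7 of 12, 7 of 16 and 7 of 9 clusters. The controls lay nearer the 2 mg/L level in 6 of 12 and 10 of 14 clusters without 10 mg/L replicates 1 and 2. They lay nearer the 10 mg/L level in 9 of 12, 13 of 16 and 5 of 9 without 2 mg/L replicates 1, 2 and 3. Each of these sets, like the 159, holds the 7 clusters that were called with all libraries, in whose choice the left-out library did take part. Aside from those 7, the left-out library was nearer its own dose in 1 of 5 and 0 of 7 clusters for 10 mg/L replicates 1 and 2, and in 20 of 152 for replicate 3. For 2 mg/L replicates 1, 2 and 3 it was 0 of 5, 0 of 9 and 0 of 2. Clusters aside from the 7 were not called once the left-out library was included, which favours those where it lay nearer the other dose. Their shares therefore do not say whether 10 mg/L replicate 3 differed from the other libraries. The set without 10 mg/L replicate 3 was the largest, at 159 clusters.

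**Figure D2:**
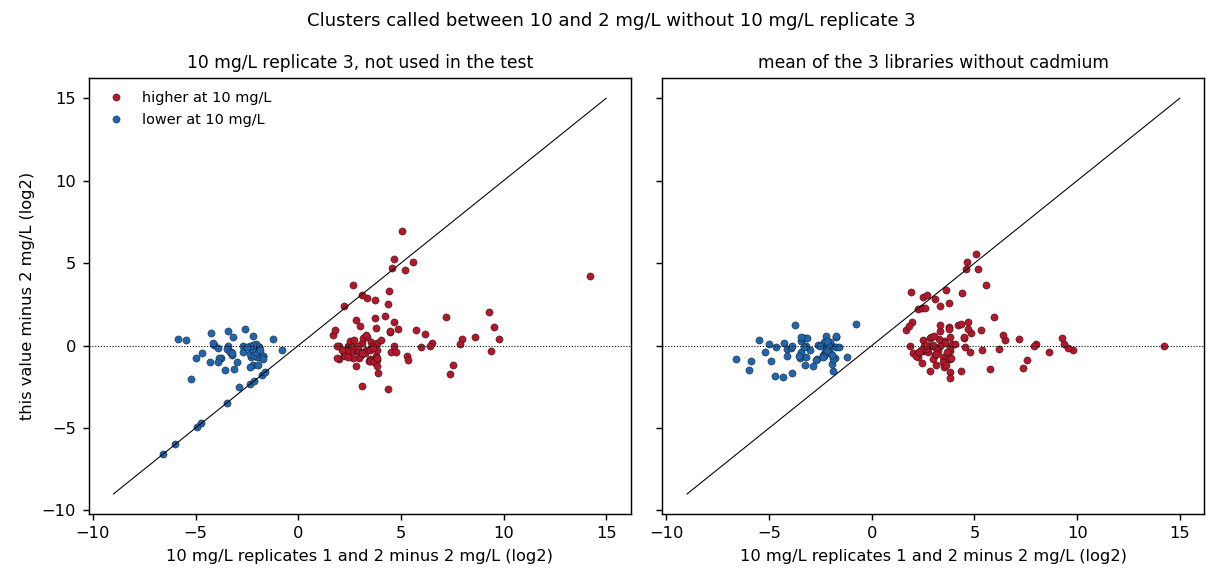
Each point is 1 of the 159 clusters called between 10 and 2 mg/L without 10 mg/L replicate 3; the horizontal axis gives the mean log2(CPM + 0.5) of 10 mg/L replicates 1 and 2 minus that of 2 mg/L, the vertical axis the same difference for 10 mg/L replicate 3 (left) and for the mean of the controls (right). Points on the diagonal equal replicates 1 and 2, and most points lie near the dotted line, which marks the 2 mg/L level.

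The set includes clusters of very high level in 2 libraries. The one with the most counts, of 4111 implied bases, had 13100 and 10491 CPM in 10 mg/L replicates 1 and 2 and 11.03 CPM in replicate 3, against 0, 0.0612 and 0.309 CPM at 2 mg/L. In the controls it did not exceed 0.169 CPM. Its 3 libraries at 10 mg/L all lay above every other library of both groups, with replicate 3 far below the other two. With all libraries it was not called (edgeR adjusted p = 0.238), and without replicate 3 it was (edgeR adjusted p = 0.0248).

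A second cluster, of 1018 implied bases, had 4324 and 3370 CPM in 10 mg/L replicates 1 and 2 but 6.59 CPM in replicate 3, below its 44.1, 17.8 and 14.4 CPM at 2 mg/L. Another, of 732 implied bases, followed the same pattern, with 2253, 1665 and 4.15 CPM at 10 mg/L, against 24.2, 6.49 and 5.86 CPM at 2 mg/L. Without replicate 3 their log2 fold changes were 7.20 and 7.29 (edgeR adjusted p = 0.0187 and 0.0200). Of the 99 higher clusters 21 had a mean of at least 100 CPM over the 5 libraries, and of the 60 lower clusters 1 did. That lower cluster had 104 and 81.1 CPM in 10 mg/L replicates 1 and 2 and 284 CPM in replicate 3, against 355, 348 and 313 CPM at 2 mg/L.

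The contrast between replicate 3 and its group could be counted without reference to 2 mg/L. Of the 1783 clusters that reached 100 CPM in a 10 mg/L library, 144 were at least 10-fold lower in replicate 3 than in both other libraries. The corresponding numbers were 42 for replicate 1 and 31 for replicate 2. At 2 mg/L they were 28, 37 and 31 of 1489 clusters, and in the controls 29, 25 and 26 of 1500. Clusters at least 10-fold higher in 1 library than in both others numbered 18, 30 and 32 at 10 mg/L, 22, 18 and 26 at 2 mg/L, and 20, 19 and 32 in the controls. A cluster high in only 2 libraries of a group enters these sets through them, so the counts do not say whether 1 library was low or the other two were high.

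With all 3 libraries, spread within a group was wider at 10 mg/L than at 2 mg/L for clusters of every level class. The median coefficient of variation was 46.4% at 10 mg/L and 30.5% at 2 mg/L for the 6336 clusters with a mean of 10 to 100 CPM over both doses. It was 45.9% and 31.8% for the 1067 clusters of 100 to 1000 CPM, and 52.0% and 33.0% for the 135 above that. In the controls it was 30.6%, 32.9% and 37.4% in the same classes. Without 10 mg/L replicate 3 a single pair remains at that dose, whose median absolute log2 difference of 0.54 was near the 0.46 to 0.49 of the 2 mg/L pairs, against 0.94 and 0.83 for the pairs with replicate 3. No test of this spread was made.

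Across all tested clusters the log2 fold change had quartiles of -0.76 and 0.93 and a median of 0.04, which the scaling sets near 0. The median of the difference of log2(mean CPM + 0.5) was 0.03 with TMM, 0.02 with library size alone and 0.04 with DESeq2 size factors, so the choice among these scalings shifted the comparison little. An unadjusted edgeR p under 0.05 was found for 6236 clusters, 10.9% of those tested. Higher at 10 mg/L were 3357 (5.87%), and lower 2879 (5.04%).

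The 3 libraries of one dose did not overlap the 3 of the other in 9319 clusters, 16.3% of those tested, with 4097 higher (7.17%) and 5222 lower (9.14%) at 10 mg/L. The share was 13.7% of clusters under 1 CPM, 17.7% at 1 to 10 CPM and 20.7% at 10 to 100 CPM. It was 20.2% at 100 to 1000 CPM and 17.8% above 1000 CPM. Lower clusters outnumbered higher ones in every class under 100 CPM. There were 1555 higher and 1961 lower of the 25648 clusters under 1 CPM, and 1875 and 2376 of the 23965 at 1 to 10 CPM. At 10 to 100 CPM there were 550 and 763 of 6336. Direction was nearly even among the 1202 clusters of at least 100 CPM, with 117 higher and 122 lower. With 1 library left out, 2 libraries against 3 separate more easily. The 9319 became 14679 (25.7%), 13216 (23.1%) and 19517 (34.1%) without 10 mg/L replicates 1, 2 and 3. They became 13910 (24.3%), 13342 (23.3%) and 14604 (25.6%) without 2 mg/L replicates 1, 2 and 3.

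Large differences were defined as at least 4-fold in mean CPM + 0.5, a scale that understates the change of clusters with few counts. By fold alone, 2526 clusters were higher (4.42%) and 1476 lower (2.58%) at 10 mg/L. Of these, 840 higher (1.47%) and 694 lower (1.21%) also had libraries that did not overlap. Without 10 mg/L replicate 3 those numbers were 2292 and 1297. Without 10 mg/L replicates 1 and 2 they were 1302 and 1066, and 1146 and 982. Without 2 mg/L replicates 1, 2 and 3 they were 1296 and 1071, 1142 and 1001, and 1238 and 1095. The 840 higher clusters held 4.52%, 4.19% and 1.66% of TMM-scaled counts in the 10 mg/L libraries and 0.324%, 0.146% and 0.135% at 2 mg/L. The 694 lower ones held 0.378%, 0.580% and 0.710% at 10 mg/L, against 2.87%, 3.61% and 4.37% at 2 mg/L. These shares describe the sets and follow from how they were chosen.

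**Figure D3:**
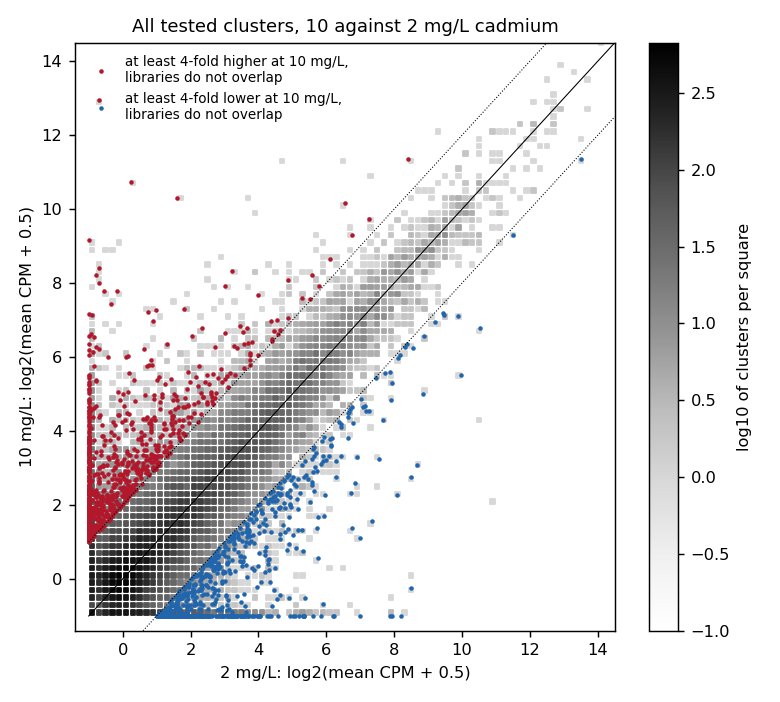
All 57151 tested clusters by mean level at 10 mg/L (vertical) and 2 mg/L (horizontal), both as log2(mean CPM + 0.5); grey squares are shaded by the number of clusters, and dotted lines mark 4-fold differences. The 840 red and 694 blue points are clusters past 4-fold whose libraries do not overlap; many lie at the lowest levels of 1 dose.

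Beyond the filter and the scaling, the controls took no part in choosing those sets, and their place shows which dose lay outside the unexposed range. Among the 840 clusters higher at 10 mg/L, the 10 mg/L libraries did not overlap the controls in 347 (41.3%) and the 2 mg/L libraries in 204 (24.3%). Among the 694 lower clusters the numbers were 209 (30.1%) for 10 mg/L and 235 (33.9%) for 2 mg/L. Over all tested clusters the shares were 16.8% and 15.3%. Choosing clusters with separated doses raises both shares, and the 2 comparisons share the control libraries. In 325 of the higher and 279 of the lower clusters neither dose was clear of the controls, which spanned the gap or overlapped both.

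Of the higher clusters more lay outside the controls at 10 mg/L, while of the lower clusters slightly more did so at 2 mg/L. With an 8-fold limit the higher clusters divided as 136 for 10 mg/L and 87 for 2 mg/L of 332, and the lower ones as 54 and 74 of 219. With a 2-fold limit the lower clusters turned round, with 1048 for 10 mg/L and 820 for 2 mg/L of 2673. Counting clusters in which only 1 dose lay outside the controls, the higher set gave 311 for 10 mg/L and 168 for 2 mg/L, and the lower set 180 and 206. A dose with a library left out clears the controls more easily, with 2 libraries against 3. The higher set became 590 and 210, 463 and 192, and 1489 and 173 without 10 mg/L replicates 1, 2 and 3. It became 375 and 339, 311 and 311, and 395 and 308 without 2 mg/L replicates 1, 2 and 3. The lower set turned round, to 330 and 256, 297 and 258, and 522 and 256 without 10 mg/L replicates 1, 2 and 3, and to 232 and 225 without control replicate 3. It kept its direction, at 191 and 434, 174 and 411, and 206 and 426, without 2 mg/L replicates 1, 2 and 3. It also turned, to 113 and 109, with at least 5 CPM required in 3 libraries, and to 684 and 467 with the fitted fold in place of the fold of mean CPM + 0.5. The direction in the lower set depends on these choices, and that in the higher set was lost without 2 mg/L replicate 2. The difference between the doses was not tested.

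**Figure D4:**
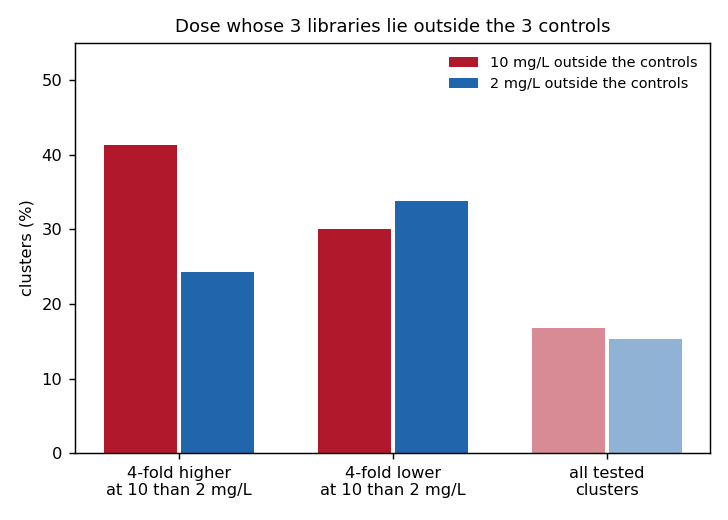
Percentage of clusters in which the 3 libraries at 10 mg/L (red) or at 2 mg/L (blue) lie wholly above or below the 3 controls, for clusters at least 4-fold higher or lower at 10 than at 2 mg/L without overlap, and for all tested clusters (pale). The 2 bars are furthest apart in the higher set, 41.3% against 24.3%.

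Some clusters were present in all libraries of one dose and missing from the other. Of the 57151 tested clusters, 246 had at least 10 counts in each 10 mg/L library and 0 in every 2 mg/L library. The reverse held for 268 of the 57151. Of the 246 clusters missing at 2 mg/L, 48 had at least 10 counts in every control and 28 had 0 in every control. Of the 268 missing at 10 mg/L, 41 had at least 10 counts in every control and 31 had 0. In the rest, 170 and 196 clusters, some control had under 10 counts but not every control had 0. Most of these clusters therefore did not reach 10 counts in every unexposed library either, which does not show that they were missing there. Their median level where present was 3.32 CPM at 10 mg/L and 2.63 CPM at 2 mg/L.

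The most abundant cluster missing at 2 mg/L had 750, 361 and 598 CPM at 10 mg/L, 0 counts at 2 mg/L, and 186, 345 and 246 CPM in the controls, below every 10 mg/L library. It was not called between the doses (edgeR adjusted p = 0.301). In each set 3 clusters were among the 7 called.

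Among the 1202 clusters averaging at least 100 CPM, 0 passed the edgeR quasi-likelihood test between the doses, and the smallest adjusted p was 0.238. An unadjusted p under 0.05 was found for 231 of them (19.2%, against 10.9% of all tested clusters), 142 higher and 89 lower. DESeq2 called 114 of the 1202 (9.48%, against 5.13% of all), the edgeR likelihood ratio test 29 (2.41%, against 2.03%) and limma-voom 0. A 4-fold difference without overlap was seen in 22 higher clusters (1.83%, against 1.47%) and 28 lower ones (2.33%, against 1.21%). In 7 of the 22, 10 mg/L replicate 3 was at least 10-fold below both other libraries of its dose, and in none of the 28. Of the 22, 17 still did not overlap when scaled by library size alone. The 10 mg/L libraries lay outside the controls in 11 of the 22 and the 2 mg/L libraries in 9, and among the 28 lower clusters in 11 and 10. Among all 1202 clusters the shares were 19.6% and 18.7%.

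Within these clusters several kinds of pattern occurred, and the examples, chosen after their values were seen, are given with no call. One higher cluster had 601, 2425 and 2049 CPM at 10 mg/L, 0.846, 0.245 and 0.988 CPM at 2 mg/L, and 0.652, 24.7 and 2.42 CPM in the controls, so that all 3 libraries at 10 mg/L stood clear of both other groups (edgeR adjusted p = 0.333). Another had 320, 183 and 311 CPM at 10 mg/L, 24.3, 21.7 and 40.4 CPM at 2 mg/L and 67.7, 29.9 and 42.3 CPM in the controls, again with 10 mg/L apart (edgeR adjusted p = 0.241). One more had 954, 1024 and 590 CPM at 10 mg/L, 186, 146 and 124 CPM at 2 mg/L and 835, 1066 and 856 CPM in the controls, with 2 mg/L apart (edgeR adjusted p = 0.372).

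Lower clusters showed the same variety. One had 0.498, 403 and 10.8 CPM at 10 mg/L, 937, 748 and 1148 CPM at 2 mg/L and 569, 324 and 166 CPM in the controls, where the 2 mg/L libraries stood clear and the 10 mg/L libraries scattered (edgeR adjusted p = 0.535). Another had 0, 12.9 and 0.222 CPM at 10 mg/L, 161, 370 and 282 CPM at 2 mg/L and 87.6, 392 and 160 CPM in the controls, with 10 mg/L apart (edgeR adjusted p = 0.402).

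The 135 clusters above 1000 CPM held 40.8% of TMM-scaled counts at 10 mg/L and 43.8% at 2 mg/L. In 24 of them the libraries of the doses did not overlap, 12 in each direction, or 17.8%, against 16.3% over all tested clusters, and all 24 also stayed apart with library size alone and with DESeq2 size factors. Differences were mostly moderate: 10 of the 12 higher and 8 of the 12 lower had a log2 fold change of at most 1.5 in size, and no edgeR adjusted p was below 0.238. The most abundant higher cluster, of 1460 implied bases, had 11763, 10683 and 21697 CPM at 10 mg/L, against 6926, 7664 and 9602 CPM at 2 mg/L, with 6289, 11140 and 14054 CPM in the controls, which overlapped both doses. The most abundant lower cluster had 5421, 4782 and 10012 CPM at 10 mg/L, against 14641, 14973 and 10647 CPM at 2 mg/L, while the controls had 5310, 15273 and 9361 CPM.

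In this class 10 mg/L replicate 3 was the highest of its group in 10 of the 12 higher and 10 of the 12 lower clusters. Replicate 3 was also the highest in 766 of all 1202 clusters of at least 100 CPM, against 19819 of all 57151 tested. Its TMM factor was 0.807, against 1.15 and 1.11 for replicates 1 and 2, which raises its scaled values, and it had the largest share of counts in the top 1000. The part of these values in the result was not tested. The 10 mg/L libraries lay outside the controls in 3 of the 12 higher and 4 of the 12 lower clusters, and the 2 mg/L libraries in 1 and 2. Among all 1202 clusters of at least 100 CPM the shares were 19.6% for 10 mg/L and 18.7% for 2 mg/L. Implied lengths ran from 562 to 4111 bases among the 12 higher clusters and from 98.1 to 5752 bases among the 12 lower, of which 7 were under 400 bases.

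**Figure D5:**
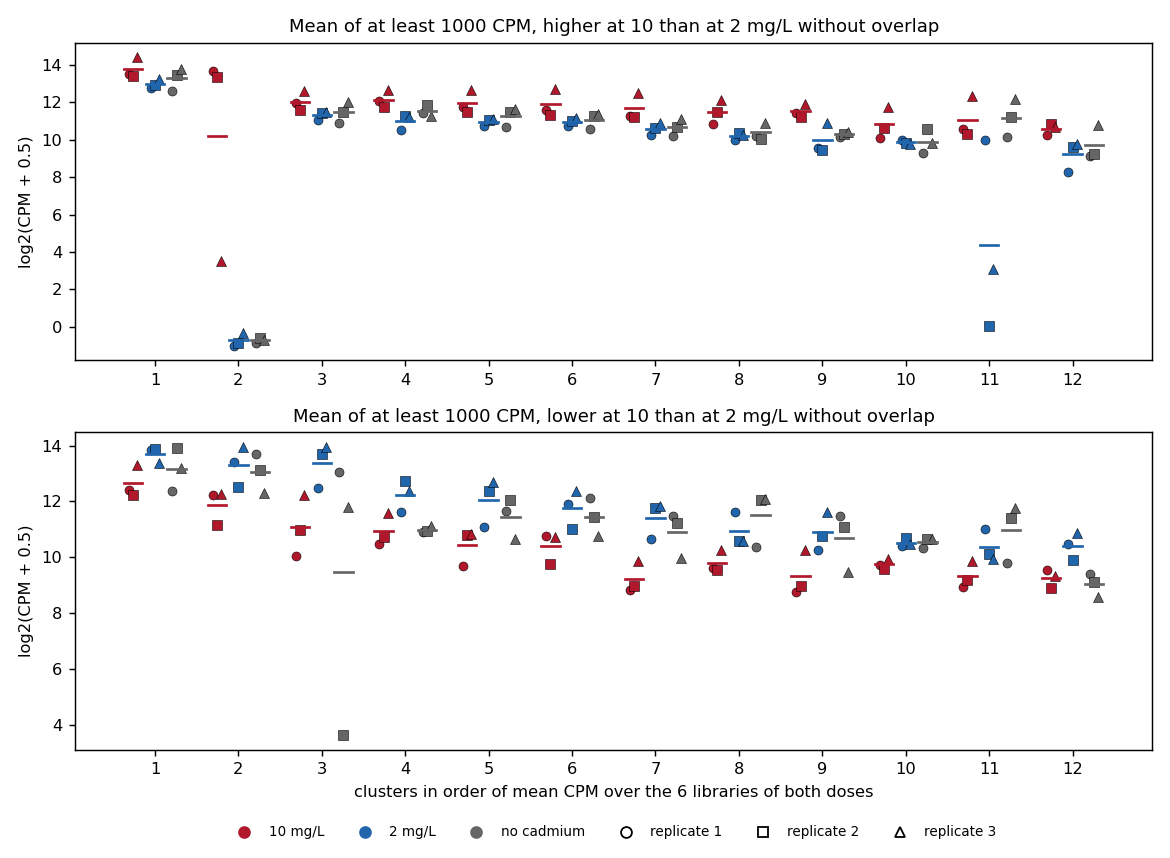
Levels as log2(CPM + 0.5) of the 24 clusters above 1000 CPM whose libraries did not overlap between the doses, 12 higher (top) and 12 lower (bottom) at 10 mg/L, in order of mean level; colours mark the groups, symbols the replicates, and short lines the mean of 3 log2 values. The second higher cluster is the one at 13100, 10491 and 11.03 CPM in the 3 libraries at 10 mg/L.

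The implied lengths of the clusters past 4-fold were spread as widely as those of all tested clusters. The median implied length was 1763 bases for the 840 higher and 2091 for the 694 lower clusters past 4-fold, with quartiles of 758 to 3119 and 1027 to 3616. It was 1496 bases, with quartiles of 658 to 2716, over the 51768 tested clusters that had a value. Median level also differed, at 3.47 and 3.51 CPM in the 2 sets and 1.20 CPM over all tested clusters.

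Other tests drew the line between the doses elsewhere. DESeq2 called 2929 clusters (5.13%), 1611 higher (2.82%) and 1318 lower (2.31%). The edgeR likelihood ratio test called 1161 (2.03%). Limma-voom called 3 (0.00525%), 2 higher (0.0035%) and 1 lower (0.00175%). The DESeq2 calls included all 7 clusters of the edgeR test and those of limma-voom 1 of the 7. In 71.5% of the DESeq2 calls the libraries of the doses did not overlap, and in 52.1% at least 1 of the 6 libraries had no counts. The median level of these calls was 2.37 CPM. Fitted to the 6 libraries alone edgeR's quasi-likelihood test called 0 clusters, with 3041 at an unadjusted p under 0.05, and fitted to the 9 libraries of both doses and the controls it called 4, of which 1 was among the 7.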

How the data were processed

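Per the labels, RNA was extracted with Tri Reagent from flash-frozen hepatopancreas and made into libraries by Illumina protocols. The files deposited by the authors give for each gene cluster a raw estimated count and an FPKM value, per the file headers. Which assembler, aligner and counting tool made them is not given in the sources used here. Counts divided among similar sequences make related clusters uncertain: 58.0% of nonzero values were whole numbers exactly as deposited.

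Counts were rounded, filtered with filterByExpr (minimum count 10, minimum total 15), scaled by TMM and fitted for all 12 libraries, 1 coefficient per group, with edgeR 4.0.16 (glmQLFit, glmQLFTest, Benjamini-Hochberg). Standard errors were taken as the size of the log2 fold change over the square root of its F statistic. The 57151 clusters kept held 98.6% of counts. FPKM served only for implied length (count and FPKM at the deposited total, values of at least 20 counts, median over libraries), which varied little between libraries (median absolute log2 deviation 0.0073). Library values were tested exactly. Identifiers named are the 2 called clusters with the highest mean CPM in each direction. Alternatives used DESeq2 1.42.0, limma 3.58.1, other filters and scalings, a replicate block and left-out libraries. The biological coefficient of variation common to all clusters in the fit was 1.12. Functions were tested on simulated data with a smaller spread, so that check does not show how many differences could be found here. Other software was matplotlib 3.10.9, scipy 1.17.1, pandas 2.3.3, numpy 2.4.6, Python 3.11.15 and R 4.3.3. The comparison, sets and tests were chosen with earlier results of these data known.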

Additional observations from a re-analysis of the deposited data

How the results depend on the processing

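Counts of calls between 10 and 2 mg/L, and of those calls also called against the controls at 10 and at 2 mg/L, were 7, 3 and 4 as reported. They were 2929, 1260 and 556 with DESeq2, 1161, 463 and 254 with the edgeR likelihood ratio test, 3, 0 and 2 with limma-voom, 4, 0 and 3 with 9 libraries, and 0, 0 and 0 with the 6 libraries compared (3041 at an unadjusted edgeR p under 0.05). Other scalings, filters, a robust fit and a test requiring more than a 2-fold change gave 7 or 8 calls. With each library left out the ranges were 5 to 159, 0 to 112 and 0 to 13. With the replicate number as a block the 3 counts were 0, 0 and 0 (edgeR, 4565 at an unadjusted p under 0.05). Correlations of deviations between same-numbered 10 and 2 mg/L libraries were 0.059, -0.0086 and -0.0021. The best match carried the same number for 2 of 6 libraries. Whether libraries with the same number were handled together was not tested.

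Cluster-27942.49753 kept its call with each library left out (edgeR adjusted p from 0.0183 to 0.0472), as did Cluster-27942.44902 and Cluster-27942.63033 (both 0.0187 to 0.0483). Cluster-27942.86978 lost it without control replicate 1 (0.0626), control replicate 2 (0.0559) and 5 mg/L replicate 2 (0.0583). Under the block the adjusted p by edgeR for these 4, in the same order, was 0.206, 0.214, 0.214 and 0.241, and limma-voom kept the first (0.0356). Fitted to 9 libraries, without those at 5 mg/L, edgeR kept only the first (adjusted p = 0.0390, 0.0570, 0.0570 and 0.0747). Fitted to the 6 libraries compared it kept none of them (edgeR adjusted p = 0.195 each). Non-overlapping clusters were 16.3% of those tested as reported. They numbered 3028 (19.6%) with at least 5 CPM in 3 libraries and 17305 (10.5%) with no low-count filter. With a library left out they numbered 13216 (23.1%) to 19517 (34.1%). Clusters past 4-fold without overlap were 1534 of the 57151 tested as reported. Of the same 57151 they numbered 5055 at 2-fold, 551 at 8-fold and 3953 with the fitted fold (chosen after seeing the data). With the 5 CPM filter they were 776 of 15447 tested, and with a library left out 1534 to 3589.

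The difference in clusters detected, 10 minus 2 mg/L, was 965 and ran from -2749 to 6106 with a library left out. It was -461 without 10 mg/L replicate 1, -2749 without its replicate 2 and -1842 without 2 mg/L replicate 3. The difference in total counts, -305853, ran from -758294 to 64019, the last without 2 mg/L replicate 3. The share in the top 1000 differed by -2.60 points (-6.19 to -0.692), and the correlation with the controls by -0.045 (-0.066 to -0.034). Causes of these shifts were not tested. Clusters under 1 CPM had a median coefficient of variation of 89.3% at 10 mg/L and 86.6% at 2 mg/L, and its relation to depth was not tested.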

Other observations

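The libraries at 5 mg/L had counts for all 7 called clusters. Cluster-27942.49753 had 45.2, 42.0 and 59.5 CPM at 5 mg/L, inside the span of the 10 mg/L and control libraries. Cluster-27942.44902 had 15.9, 20.1 and 9.45 CPM, the last just below that span. Cluster-27942.86978 had 24.1, 31.5 and 53.9 CPM at 5 mg/L and Cluster-27942.63033 had 23.3, 11.8 and 31.2 CPM, although both had 0 counts at 10 mg/L. The cluster at 13100 and 10491 CPM in 10 mg/L replicates 1 and 2 had 2.16, 0.0891 and 2.07 CPM at 5 mg/L.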
